A study of Homo sapiens with 12 samples.

Results

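The genes described here are 9 genes of pericellular matrix proteolysis in A375 melanoma cells: the matrix metalloproteinases MMP1, MMP3, MMP2 and MMP14, the tissue inhibitors TIMP1, TIMP2 and TIMP3, and the plasminogen activator PLAU with its receptor PLAUR. They were taken by symbol from the 26475 genes of the deposited count table, and 9 of 9 were present and passed the filter on low counts that left 15443 tested genes. A375 is an established human melanoma line that carries an activating BRAF mutation. The cells had been treated for 24 h with the solvent DMSO, with 1 µM XL413, an inhibitor of the replication kinase CDC7, with 1 µM GSK343, an inhibitor of the Polycomb methyltransferase EZH2, or with both compounds at 1 µM each. Each of the 4 groups had 3 biological replicates per the labels, so 12 libraries of poly-A RNA were compared. All groups are cultures of a single line, and the labels do not say how the replicate cultures were separated.

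Matrix metalloproteinases are zinc-dependent enzymes that are secreted or anchored in the membrane as inactive precursors and are activated by removal of a propeptide. The TIMPs bind the active enzymes and block them, so the level of an enzyme's mRNA alone does not give its activity. Urokinase, the product of PLAU, is held at the cell surface by its receptor and turns plasminogen into plasmin, which degrades matrix and can activate pro-metalloproteinases. In melanoma these genes are known from studies of invasion through collagen and basement membrane.

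Total expected counts were 31553205 to 39079931 per library. Replicate 2 of the combination stood apart in its log2 deviations from the mean of the other libraries of its group. Their SD over 12791 genes was 0.285 against 0.159 to 0.197 in the other 11 libraries, and those deviations followed transcript length with a Spearman rho of -0.625. That rho ran from -0.432 to 0.548 in the others. Combination replicates 1 and 3, at 0.474 and 0.548, were compared with a mean that includes replicate 2. The calls against DMSO without combination replicate 2 are given below. Of the melanocyte lineage markers, SOX10 was at 296 to 370 CPM (the expected count divided by the library's scaled depth) and MITF at 36.6 to 50.5 CPM, while TYR was at 0 in all 12 libraries and MLANA did not exceed 0.204 CPM. The 6 markers of the undifferentiated melanoma state, among them AXL at 338 to 486 CPM, summed to 1334 to 1358 CPM in DMSO, 1229 to 1312 with XL413 and 1183 to 1283 with GSK343. In the combination they summed to 866.5 CPM in replicate 2 and to 1166 and 1182 CPM in the other libraries. Every library of each treated group lay below every DMSO library, and the part of this shift in the results was not tested. Of the leukocyte markers PTPRC did not exceed 0.0875 CPM, while CD68, a lysosomal protein gene, was at 42.1 to 48.9 CPM and LYZ at 5.15 to 7.44 CPM. The 10 leukocyte markers summed to 47.85 to 52.03 CPM in DMSO and to 52.86 to 57.43 with the combination, above every DMSO library. The 5 endothelial markers summed to 8.061 to 8.883 CPM in DMSO and to 9.137 to 9.481 with XL413, also above every DMSO library. The part of these shifts in the results was not tested. Of the epithelial markers EPCAM did not exceed 0.224 CPM and CDH1 did not exceed 0.172 CPM, while the keratin genes KRT18, KRT8 and KRT14 were at 519 to 607, 46.1 to 55 and 18.2 to 24.3 CPM. The 7 epithelial markers summed to 652 to 681.4 CPM in DMSO, 639.7 to 670.7 with XL413, 584.5 to 603.4 with GSK343 and 599.7 to 662.4 with the combination. Their GSK343 libraries lay below every DMSO library, and the part of this in the results was not tested. The 8 fibroblast markers summed to 104.6 to 183.8 CPM, carried mostly by COL1A1 at 52.5 to 113 CPM. Fewer cells of a type and less RNA per cell cannot be told apart in such bulk libraries.

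The 9 genes lie on 8 chromosomes in GENCODE 29 on hg38. MMP1 (chr11:102789920-102798160) and MMP3 (chr11:102835801-102843803) lie side by side on the minus strand of chromosome 11, in a cluster of metalloproteinase genes. MMP2 is at chr16:55389700-55506691, MMP14 at chr14:22836557-22849027 and PLAU at chr10:73909177-73917497, each on the plus strand. PLAUR is at chr19:43646095-43670547 and TIMP2 at chr17:78852977-78925387, both on the minus strand. TIMP1 (chrX:47582313-47586789) and TIMP3 (chr22:32801701-32863043) are on the plus strand and overlap the synapsin genes SYN1 and SYN3, which are transcribed from the opposite strand. SYN1 had 8 to 20 counts per library and SYN3 had 15 to 35. MMP1 and MMP3 overlap the pseudogene WTAPP1 and PLAU overlaps C10orf55, each on the opposite strand and with 0 to 4 counts per library. TIMP2 overlaps CEP295NL on its own strand, with 3 to 9 counts per library. The other genes that overlap members were absent from the count table. The deposited counts of 7 members were whole in every library, and non-whole values, which arise where reads match several genes, occurred for MMP3 in 2 libraries and for PLAU in 6.

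RefSeq promoter windows (GRCh38.p14) were at hand for PLAU, which has 2 of them, MMP14, PLAUR, TIMP3 and TIMP1. The 250 bases before the start were searched on both strands for an AP-1 element (TGANTCA), an ETS element (CCGGAANT), an NF-kB element and a TATA box (TATAAA), because AP-1 and ETS factors are known regulators of several of these genes. Among the 6 windows only that of PLAUR held a match, an AP-1 element from -186 to -180 relative to the start, and the AP-1 element occurs in 6.57% of the 35116 RefSeq windows of that length. The whole PLAUR window, like both PLAU windows, lies within annotated GENCODE exons, so this match is exonic. It is shown first, with the element in capitals and its flanking bases, from the minus strand of chr19:43670338-43670366. The upstream stretches of TIMP1 (chrX:47582186-47582312, plus strand) and TIMP3 (chr22:32801455-32801700, plus strand) follow, since these inhibitors were the members with the highest RNA levels per length and TIMP1 alone of the TIMPs was called in a comparison with DMSO. Only bases outside annotated exons are shown for the TIMPs. They are 67.7% and 72.0% G or C.
PLAUR: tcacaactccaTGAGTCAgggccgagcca
TIMP1: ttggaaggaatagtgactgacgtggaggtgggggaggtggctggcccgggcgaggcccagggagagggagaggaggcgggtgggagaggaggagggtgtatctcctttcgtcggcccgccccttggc
TIMP3: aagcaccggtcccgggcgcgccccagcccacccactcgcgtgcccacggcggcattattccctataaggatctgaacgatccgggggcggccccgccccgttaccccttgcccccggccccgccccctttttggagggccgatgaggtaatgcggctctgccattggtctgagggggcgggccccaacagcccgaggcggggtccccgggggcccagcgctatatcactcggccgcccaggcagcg

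In DMSO the inhibitors TIMP1 and TIMP3 were the most abundant of these mRNAs per length, and the secreted collagenase and stromelysin were lower than all of them but PLAU. Per kilobase of transcript, TIMP1 stood at 166 ± 3.20 CPM and TIMP3 at 134 ± 2.34 CPM (SD, n = 3 here and for all group means). MMP2, a gelatinase that degrades basement membrane collagen, followed with 46.9 ± 0.757 CPM per kilobase, then PLAUR with 39.2 ± 1.26 and MMP14, the membrane-anchored activator of pro-MMP2, with 34.5 ± 0.868. TIMP2, which both inhibits MMP2 and links its precursor to MMP14, had 29.4 ± 0.780 CPM per kilobase. The interstitial collagenase MMP1 had 6.29 ± 0.320, the stromelysin MMP3 had 4.07 ± 0.548 and PLAU had 1.09 ± 0.110 CPM per kilobase. No 2 neighbours in this order had overlapping ranges over the 3 DMSO libraries. On the scale of CPM, not corrected for length, TIMP3 lay above 98.6% of the tested genes and PLAU above 23.8% of them. MMP1 lay above 41.4% and MMP3 above 35.2%.

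**Figure D1:**
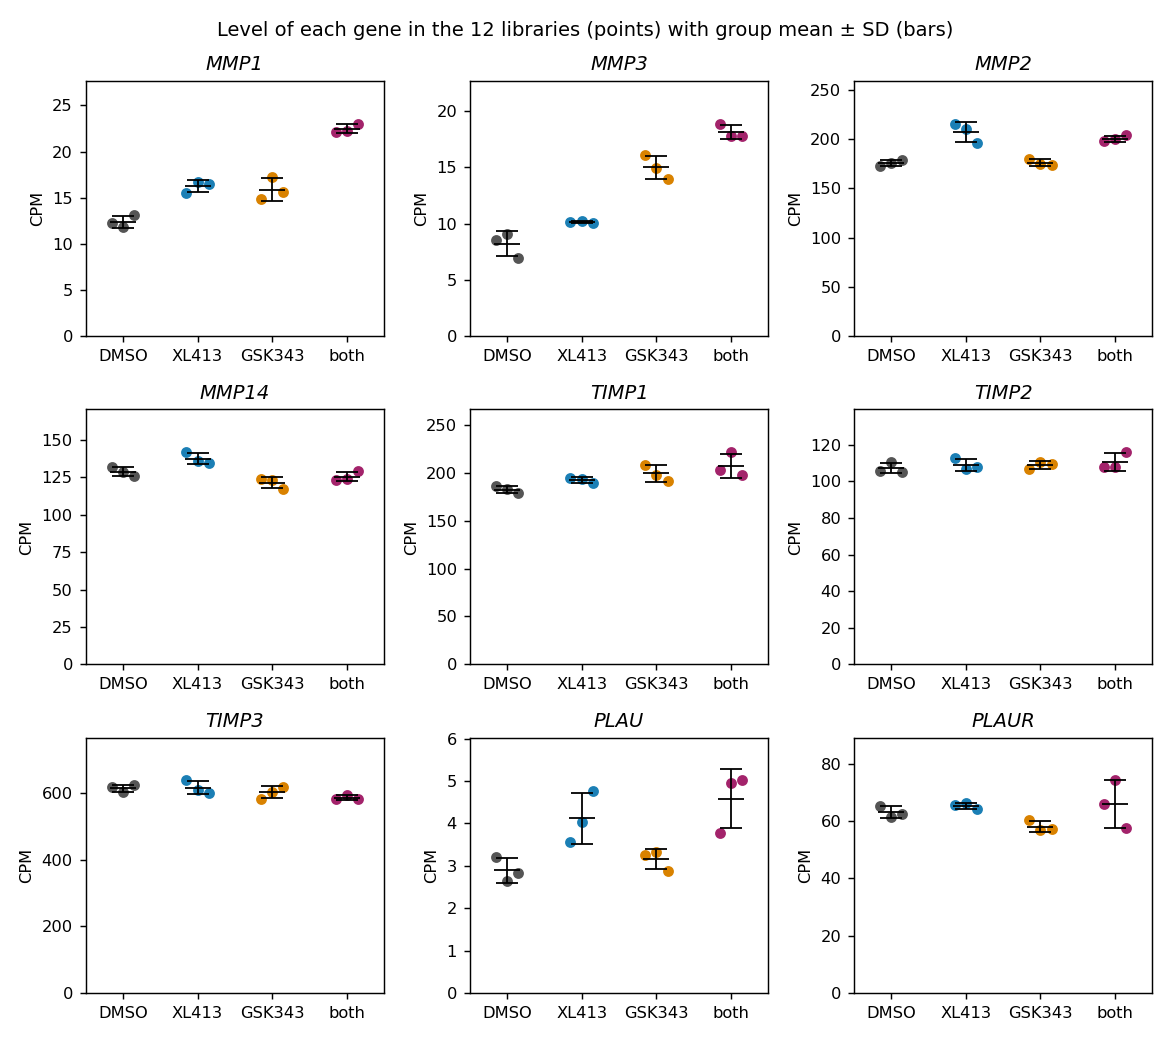
Level of each of the 9 genes in CPM (y axis, linear, from 0) in the 12 libraries, grouped by treatment (x axis); points are libraries in the order of their replicate numbers and bars give the mean and SD of 3. MMP1 and MMP3 are highest in the combination, MMP2 is higher in both groups that received XL413, and TIMP2 and TIMP3 change little.

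MMP1 was higher in each treated group than in DMSO and highest in the combination. MMP1 stood at 12.27, 11.82 and 13.07 CPM in the DMSO libraries and at 15.54, 16.70 and 16.51 CPM with XL413. It stood at 14.81, 17.23 and 15.59 CPM with GSK343 and at 22.17, 22.18 and 23.04 CPM with both compounds. Each treated group lay wholly above DMSO, the combination lay wholly above either single compound, and the single-compound groups overlapped. Of all tested genes, 11.9% lay wholly above DMSO with XL413, 11.2% with GSK343 and 16.3% with the combination. The shares wholly below DMSO were 16.2%, 14% and 17.4%. For 10% of tested genes the combination lay wholly above XL413, and for 10.5% wholly above GSK343. The log2 fold change of MMP1 against DMSO was 0.39 ± 0.067 (SE) with XL413 (adjusted p = 0.0233), 0.36 ± 0.067 with GSK343 (adjusted p = 0.0229) and 0.86 ± 0.066 with the combination (adjusted p = 3.08e-05), by edgeR's quasi-likelihood test. Every adjusted p here comes from that test unless another is named, adjusted by Benjamini-Hochberg over all 15443 genes. By p the combination's change was number 3 of the 15443 tested genes. The combination exceeded XL413 alone by 0.47 ± 0.064 (adjusted p = 0.00329) and GSK343 alone by 0.50 ± 0.064 (adjusted p = 0.00333). GSK343 minus XL413 was -0.03, with a 95% interval from -0.18 to 0.11. The XL413 call was lost without any DMSO or XL413 library (adjusted p up to 0.152), and the GSK343 call without any DMSO library or without GSK343 replicate 2 or 3 (up to 0.131), whereas the combination's call held without each of the 12 libraries. The excess over GSK343 alone was not called in a fit of only those groups (0.50, adjusted p = 0.12).

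MMP3, which degrades proteoglycans and fibronectin and can activate pro-MMP1, rose with GSK343 and with the combination. MMP3 stood at 8.571, 9.068 and 6.956 CPM in DMSO and at 10.18, 10.20 and 10.02 CPM with XL413. With GSK343 it stood at 16.08, 14.96 and 13.95 CPM, and with both compounds at 18.91, 17.79 and 17.82 CPM. The 4 groups did not overlap, in the order DMSO, XL413, GSK343, combination. How many of all tested genes had such an order was not counted. GSK343 lay wholly above XL413 for 14.7% of them. MMP3 rose by 0.87 ± 0.089 on the log2 scale with GSK343 (adjusted p = 0.000308) and by 1.15 ± 0.088 with the combination (adjusted p = 3.08e-05), a fold of 2.22 with a 95% interval of 1.94 to 2.53. The XL413 value of 0.31 ± 0.091 did not pass the test (adjusted p = 0.161). The combination exceeded XL413 alone by 0.84 ± 0.086 (adjusted p = 0.000352), while its excess of 0.28 ± 0.083 over GSK343 alone missed the threshold (adjusted p = 0.113). GSK343 alone exceeded XL413 alone by 0.57 ± 0.087 (adjusted p = 0.0036). The calls against DMSO and the difference between the single compounds held without each library in turn.

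MMP2 separated the groups along the other compound. It stood at 172.7, 175.6 and 178.3 CPM in DMSO and at 179.7, 174.9 and 173.5 CPM with GSK343. With XL413 it stood at 215.8, 209.8 and 196.2 CPM, and with both compounds at 197.6, 199.8 and 203.9 CPM. DMSO and GSK343 overlapped each other, XL413 and the combination overlapped each other, and every library that received XL413 lay above every library that did not. How many of all tested genes had that separation was not counted. GSK343 lay wholly below XL413 for 14.1% of them. MMP2 rose by 0.24 ± 0.040 with XL413 (adjusted p = 0.0204) and by 0.19 ± 0.040 with the combination (adjusted p = 0.00894). The GSK343 value was 0.00, with a 95% interval from -0.08 to 0.09. GSK343 was lower than XL413 by -0.24 ± 0.040 (adjusted p = 0.00694). The XL413 call was lost without any DMSO library or without XL413 replicate 1 or 2 (adjusted p up to 0.115). The combination also exceeded GSK343 alone, by 0.19 ± 0.040 (adjusted p = 0.0462), but this call stood in only 2 of the 12 fits with a library left out, those without XL413 replicate 3 or combination replicate 2.

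MMP14, which activates pro-MMP2 at the cell surface, was not called against DMSO in any treated group. It stood at 132.3, 128.4 and 125.9 CPM in DMSO, at 142.0, 136.0 and 134.7 CPM with XL413, and at 123.8, 123.4 and 117.1 CPM with GSK343. With both compounds it stood at 123.3, 124.2 and 129.2 CPM. XL413 libraries lay just above DMSO and GSK343 libraries just below it, with values of 0.09 ± 0.040 (adjusted p = 0.323) and -0.09 ± 0.040 (adjusted p = 0.359). The difference between the single compounds passed the test, GSK343 minus XL413 being -0.18 ± 0.040 (adjusted p = 0.0295). It was lost without any XL413 or GSK343 library (adjusted p up to 0.121).

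**Figure D2:**
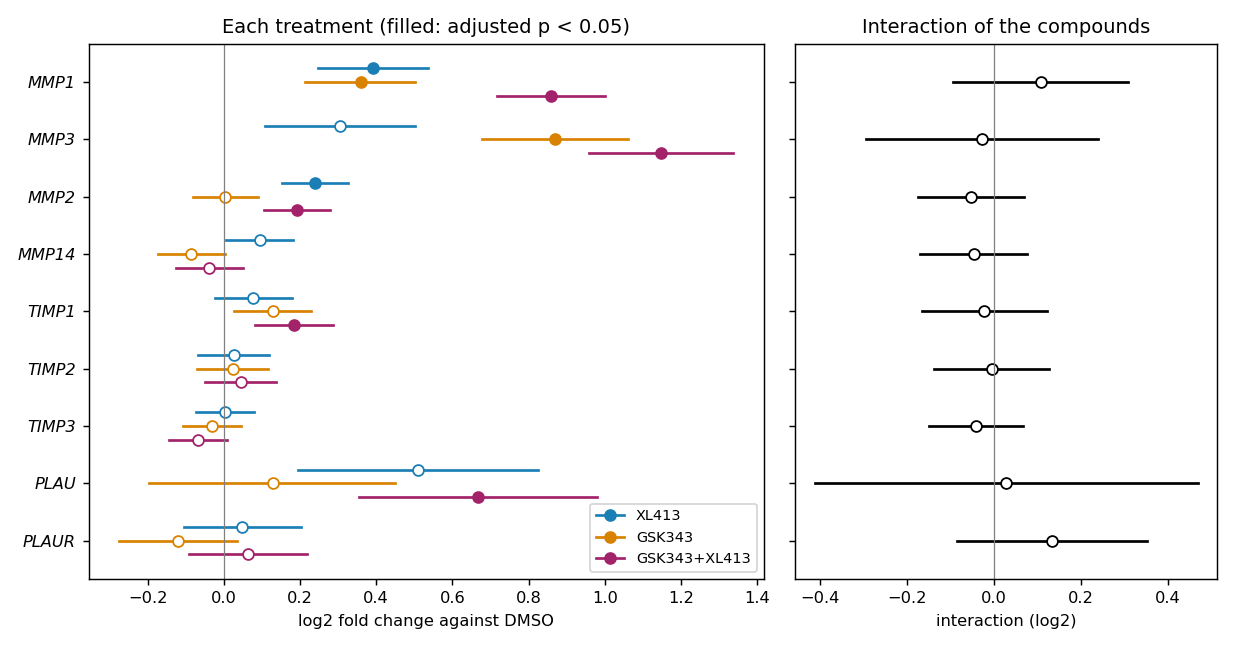
Left, log2 fold change of each gene against DMSO with its 95% interval for XL413, GSK343 and the combination, filled where the adjusted p is under 0.05; right, the interaction (log2) with its 95% interval. MMP3 with GSK343 and MMP1 and MMP3 with the combination have the smallest p-values, and all 9 interaction intervals include 0.

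Of the inhibitors, TIMP1 alone was called, and by a small amount. TIMP1 stood at 185.6, 182.4 and 178.6 CPM in DMSO, at 194.4, 193.5 and 189.2 CPM with XL413 and at 208.4, 197.8 and 191.3 CPM with GSK343. With both compounds it stood at 202.3, 221.5 and 197.2 CPM, the highest value being that of replicate 2, the library that stood apart. Every treated library lay above every DMSO library, and the treated groups overlapped one another except that the combination lay above XL413. How many of all tested genes had all treated libraries above DMSO was not counted. TIMP1 rose by 0.18 ± 0.047 with the combination (adjusted p = 0.0225), a fold of 1.14, and the values of 0.08 with XL413 and 0.13 with GSK343 did not pass the test (adjusted p = 0.495 and 0.226). Without combination replicate 2 the combination's value was 0.14 (adjusted p = 0.0215), and the GSK343 value of 0.13 then passed (adjusted p = 0.0288). The combination's call was lost without any of the DMSO libraries (adjusted p up to 0.0888) and in a fit of only the groups compared (0.18, adjusted p = 0.094). It was also lost after correction for GC content and transcript length, which left 0.08 ± 0.030 (adjusted p = 0.0927). With that correction the GSK343 value of 0.12 ± 0.030 passed (adjusted p = 0.0327).

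TIMP2 and TIMP3 were not called in any comparison. TIMP2 ranged from 105.4 to 110.5 CPM in DMSO, from 106.8 to 113 CPM with XL413, from 106.7 to 110.6 CPM with GSK343 and from 107.8 to 116.1 CPM with the combination. Its log2 values against DMSO were 0.03, 0.02 and 0.04, and the interval for the combination ran from -0.05 to 0.14. TIMP3, which is bound to the matrix and also inhibits ADAM proteinases, ranged from 603.9 to 625 CPM in DMSO, 602.3 to 639.1 CPM with XL413, 584.4 to 620.5 CPM with GSK343 and 581.9 to 596.8 CPM with the combination. Only the last of these ranges lay apart from DMSO, below it, and its value of -0.07 ± 0.036 missed the threshold (adjusted p = 0.214). It passed at -0.10 ± 0.026 (adjusted p = 0.0132) with both the GC and length correction and combination replicate 2 left out, an alternative chosen after seeing the data.

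MMP1 and MMP3 together, as a share of the 3 TIMPs on the scale of CPM per kilobase, therefore stood at different levels in the 4 groups. The sum of MMP1 and MMP3 was 3.15, 3.20 and 3.08% of the TIMP sum in DMSO and 3.73, 4.0 and 4.01% with XL413. It was 4.47, 4.72 and 4.37% with GSK343, and 6.05, 5.56 and 6.07% with both compounds. The 4 groups did not overlap. All 4 metalloproteinases together came to 27.7 to 28.0% of the TIMP sum in DMSO, 27.3 to 28.0% with GSK343, 30.6 to 31.3% with XL413 and 29.5 to 32.4% with the combination, a sum that MMP2 and MMP14 make up for the most part. These shares combine members already described and carry no test of their own.

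**Figure D3:**
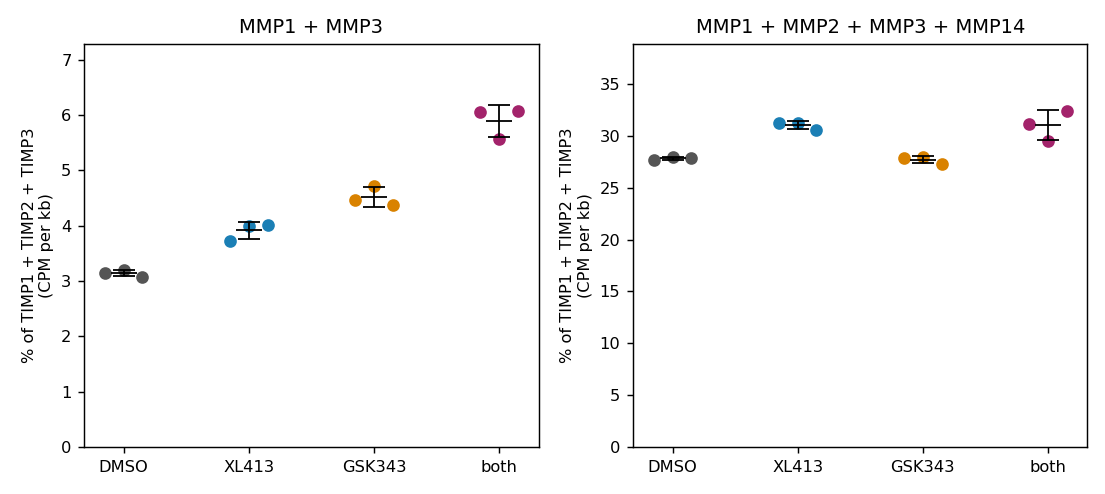
Summed level of MMP1 and MMP3 (left) and of all 4 metalloproteinases (right) as a percentage of the summed level of TIMP1, TIMP2 and TIMP3 (y axes, from 0), both per kilobase of transcript, by library; bars give mean and SD of 3. On the left the combination sits at 5.56 to 6.07%, above the DMSO libraries at 3.08 to 3.20%.

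Of the plasminogen activation pair, PLAU was the member with the fewest counts, 89 to 191 per library. It stood at 3.210, 2.638 and 2.830 CPM in DMSO and at 3.558, 4.040 and 4.754 CPM with XL413. It stood at 3.265, 3.336 and 2.887 CPM with GSK343 and at 3.782, 4.954 and 5.014 CPM with both compounds. As for MMP2, every library that received XL413 lay above every library that did not, but the spread within groups was wide. The share of all tested genes with this separation was not counted. PLAU rose by 0.67 ± 0.144 with the combination (adjusted p = 0.0104), a fold of 1.59 with a 95% interval of 1.28 to 1.97. The value with XL413 was 0.51 ± 0.146 (adjusted p = 0.15) and that with GSK343 was 0.13 ± 0.150 (adjusted p = 0.769). Without DMSO replicate 2 the combination value had an adjusted p of 0.0531, the XL413 value passed in a fit of only those groups (0.52, adjusted p = 0.0387), and PLAU was not tested under the stricter filter of 5 CPM in 3 libraries.

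PLAUR was not called in any comparison. It stood at 65.33, 61.37 and 62.57 CPM in DMSO, at 65.50, 66.24 and 64.09 CPM with XL413 and at 60.35, 56.80 and 57.14 CPM with GSK343. With both compounds it stood at 66.09, 74.18 and 57.50 CPM. The GSK343 libraries lay below all DMSO libraries, with a value of -0.12 ± 0.072 (adjusted p = 0.499), and the combination spanned the ranges of DMSO and XL413. The combination's value of 0.06 ± 0.071 (adjusted p = 0.585) was -0.03 without replicate 2. Without that library GSK343 was lower than XL413 (-0.17 ± 0.047, adjusted p = 0.0295), and without combination replicate 3 the combination was higher than GSK343 (0.26 ± 0.055, adjusted p = 0.0382).

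Read across the 9 genes, 2 were called higher with XL413 (MMP1 and MMP2), where 0.427% of all tested genes were called, and 2 with GSK343 (MMP1 and MMP3), where 1.17% were called. With the combination 5 were called higher (MMP1, MMP3, MMP2, TIMP1 and PLAU) against a background of 13.9%, of which 6.69% higher. In each of these 3 comparisons 0 of the 9 were called lower, by edgeR, DESeq2 or limma-voom. Members with an unadjusted p under 0.05 numbered 5, 3 and 5, each with a value above 0, where 13.7%, 14.3% and 30.4% of all tested genes had one. With combination replicate 2 left out, the members called higher numbered 2, 3 and 5, against 4.85%, 6.15% and 15% of all genes called in either direction in that fit. The median log2 value of the 9 genes was 0.09 with XL413, 0.02 with GSK343 and 0.18 with the combination, beside medians of all tested genes of -0.01, 0.00 and 0.01. These 3 comparisons share the DMSO libraries, so their values are not independent of one another. The 9 genes and the lists below were chosen with earlier results of these data known. Their counts beside the shares of all genes are therefore descriptions and not tests of a set.

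Between treated groups, 2 of the 9 were higher in the combination than with XL413 (MMP1 and MMP3; background 0.784%) and 2 were higher in the combination than with GSK343 (MMP1 and MMP2; background 0.984%). GSK343 against XL413 gave 1 higher (MMP3) and 2 lower (MMP2 and MMP14), with 3.53% of tested genes called. The test of whether the effect of GSK343 differed with and without XL413 called 0 of the 9 genes and 0 of all tested genes by edgeR (background 0%). Of the 9 genes, 0 had an unadjusted p under 0.05 there, as did 413 or 2.67% of all tested genes, and DESeq2 and limma-voom likewise called 0 of the 9. The interaction was 0.11 for MMP1, with a 95% interval from -0.09 to 0.31, -0.03 for MMP3 (from -0.29 to 0.24), -0.05 for MMP2 (from -0.17 to 0.07) and 0.03 for PLAU (from -0.41 to 0.47). The interval of PLAU is wider than its change against DMSO.

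The chromosome 11 cluster holds 10 genes of the table within the span of its metalloproteinases: MMP7, MMP20, MMP27, MMP8, the pseudogene WTAPP1, MMP10, MMP1, MMP3, MMP12 and MMP13 in order of position. Of these, 5 were tested, and MMP7, MMP20, MMP27, WTAPP1 and MMP12 had at most 4 counts in any library. MMP13, collagenase 3, had 20, 20 and 21 counts in the DMSO libraries and 32 to 50 in the 9 treated ones. It rose by 1.11 ± 0.199 with the combination (adjusted p = 0.00421), with or without each library in turn. The MMP13 values of 0.91 with XL413 and 0.84 with GSK343 missed the threshold (adjusted p = 0.0725 and 0.0707). Without combination replicate 2 both passed, at 0.92 (adjusted p = 0.0321) and 0.84 (adjusted p = 0.0416), as they did with the GC and length correction (0.90, adjusted p = 0.0307, and 0.79, adjusted p = 0.0431). MMP10, another stromelysin, had 10 to 30 counts per library and was called with the combination at 0.91 ± 0.283 (adjusted p = 0.0488), a call that stood in only 2 of 12 fits with a library left out. MMP8, the neutrophil collagenase, had a value of 0.28 ± 0.122 with the combination (adjusted p = 0.145), its means being 2.96 CPM in DMSO and 3.60 CPM in the combination. MMP10, MMP1, MMP3 and MMP13 were thus the tested genes of the cluster that were called with the combination, and MMP8 was not.

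**Figure D4:**
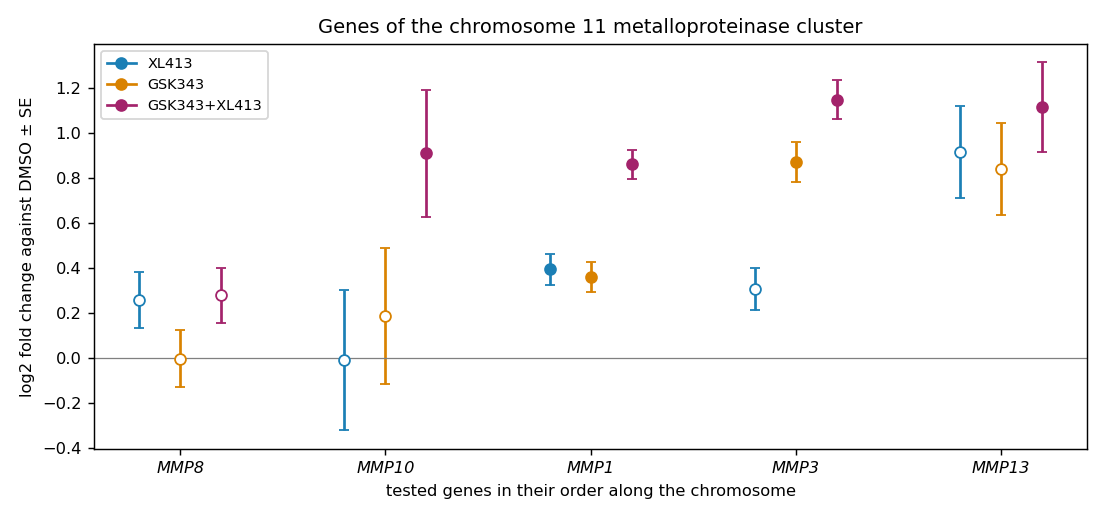
Log2 fold change against DMSO with its SE (y axis) for the 5 tested genes of the chromosome 11 cluster, in their order along the chromosome (x axis, not to scale), filled where the adjusted p is under 0.05. MMP10, MMP1, MMP3 and MMP13 are filled for the combination, and MMP8 lies at 0.28.

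Outside the 9 genes, 6 lists of the same system were counted in the combination, where 6.69% of tested genes were called higher and 7.25% lower. Of 19 other metalloproteinases, 11 were tested and 2 were higher, MMP10 and MMP13 of the cluster. With XL413 or GSK343 alone, 0 of those 11 were called by edgeR or limma-voom, and 2 and 1 had an unadjusted p under 0.05, as did 13.7% and 14.3% of all tested genes. DESeq2 called 0 as well, but it gave MMP13 and MMP10 no adjusted p in these comparisons, so it could not call them. Without combination replicate 2, MMP13 was the 1 called in each of the 3 comparisons. Of 13 other plasminogen system genes, 10 were tested and 2 were higher: SERPINA5, the protein C inhibitor, which also inhibits urokinase, by 0.35 ± 0.095 (adjusted p = 0.0277), and the plasminogen receptor PLGRKT by 0.28 ± 0.077 (adjusted p = 0.0303). The PLGRKT value fell to 0.08 after correction for GC content and length (adjusted p = 0.481). PLGRKT was not called without DMSO replicate 2 or 3 or combination replicate 2 or 3. SERPINA5 was not called without DMSO replicate 2 or 3 or combination replicate 1. Both calls were lost in a fit of only the groups compared.

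Among other regulators of metalloproteinase activity, 9 of 10 were tested, 2 were higher and 4 lower with the combination, and these moved in both directions. FURIN, the convertase that cleaves the propeptide of MMP14, fell from 131 to 110 CPM (-0.25 ± 0.038, adjusted p = 0.00204). TGM2, a transglutaminase that crosslinks matrix, fell by 0.28 on the log2 scale (SE 0.049, adjusted p = 0.00411), and it also fell by 0.25 with GSK343 (SE 0.049, adjusted p = 0.0277). CAV1, a caveolar scaffold protein, fell by 0.18 (SE 0.033, adjusted p = 0.00539). TFPI2, a secreted inhibitor of plasmin and other serine proteinases, rose by 0.27 ± 0.052 (adjusted p = 0.00644). The 2 further calls, named after their values were seen, were SPOCK1, a proteoglycan, at 0.33 ± 0.080 (adjusted p = 0.0173) and the hyaluronan receptor CD44 at -0.14 ± 0.041 (adjusted p = 0.0388). CD44 was not called without combination replicate 2, where the metalloproteinase inducer BSG was (-0.11). The calls of FURIN, TGM2, CAV1 and TFPI2 in the combination held without each library in turn, while the GSK343 call of TGM2 stood in 4 of 12 such fits.

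Of 29 ADAM and ADAMTS proteinases, 25 were tested, and 1 was called by edgeR in the comparisons with DMSO, ADAMTS6. It fell from 16.9 CPM in DMSO to 11.4 CPM with XL413 (-0.56 ± 0.096, adjusted p = 0.0233) and to 11 CPM with the combination (-0.63 ± 0.096, adjusted p = 0.00189). It was 16.3 CPM with GSK343 (-0.05, adjusted p = 0.869). In the combination without its replicate 2, ADAMTS6 (-0.52) and ADAM15 (-0.11) were lower and ADAMTS3 (0.28) was higher, the last 2 being named after their values were seen. The XL413 call of ADAMTS6 stood in 7 of 12 fits with a library left out. Between treated groups, 3 of the 25 were higher and 1 lower in GSK343 against XL413 (background 3.53%). In the combination against GSK343, 1 was lower (background 0.984%).

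The AP-1 and ETS factors, which bind the promoters of MMP1 and several other members, were all tested, 16 of 16. With the combination 0 were higher and 4 lower: ETS1 fell from 150 to 126 CPM (-0.26 ± 0.052, adjusted p = 0.00739) and FOSL1 from 341 to 304 CPM (-0.17 ± 0.043, adjusted p = 0.0241). ETV4 fell by 0.16 (SE 0.042, adjusted p = 0.0263) and ELK1 by 0.15 (SE 0.041, adjusted p = 0.0286). The ETS1 call held without each library in turn, and those of FOSL1, ETV4 and ELK1 in 10, 8 and 8 of 12 such fits. The call of each of the 4 was lost in a fit of only the groups compared.

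Of 23 genes of matrix substrates, 23 were tested and 0 were called with any treatment by edgeR, DESeq2 or limma-voom, while 1, 3 and 3 had an unadjusted p under 0.05 with XL413, GSK343 and the combination, shares below or near those of all tested genes (13.7%, 14.3% and 30.4%). Their median values were 0.07 with XL413, -0.09 with GSK343 and -0.03 with the combination. The 2 with the highest level were THBS1, thrombospondin 1, at 1290 CPM in DMSO and 1160 CPM in the combination (-0.16 ± 0.070, adjusted p = 0.15), and SPARC at 1060 and 1050 CPM (-0.01 ± 0.028, adjusted p = 0.877). Without combination replicate 2, 4 of the 23 were called higher in the combination: VCAN (0.54), LAMA4 (0.18), LAMC1 (0.13) and COL4A1 (0.10). LAMC1 was then also higher with XL413 (0.12), and with GSK343 LAMA4 was higher (0.16) and COL4A2 (-0.10) and TNC (-0.13) lower. These genes were named after their values were seen, and 4.85%, 6.15% and 15% of all genes were called in that fit with XL413, GSK343 and the combination.

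The other lists, with combination replicate 2 left out, also had calls with a single compound, against the same shares of all genes. Of the plasminogen system genes, PLAT (0.16) and SERPINE2 (0.16) were higher with XL413 and SERPINA5 (0.38) with GSK343. Of the regulators, 1 was higher and 2 lower with XL413, and 1 higher and 2 lower with GSK343. Of the ADAM and ADAMTS proteinases, 1 was lower with XL413, and 2 were higher and 1 lower with GSK343. Of the AP-1 and ETS factors, ETS1 was lower with XL413 (-0.12) and with GSK343 (-0.13), where ETV1 was higher (0.15). PLAT, SERPINE2 and ETV1 were named after their values were seen. With all 12 libraries, DESeq2 called 2 plasminogen system genes, 1 regulator and 1 ADAM or ADAMTS gene with XL413. With GSK343 it called 1, 2 and 2 genes of these lists, and it called 0 AP-1 or ETS factors with either compound. Of all genes to which it gave an adjusted p, DESeq2 called 2.1% with XL413 and 2.62% with GSK343.

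**Figure D5:**
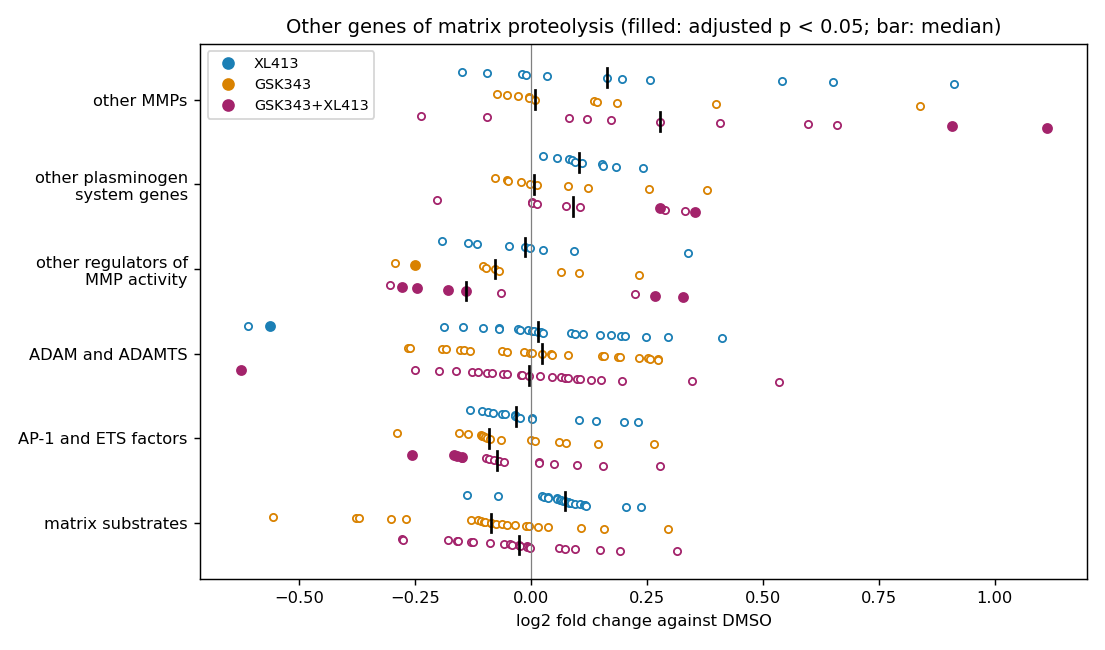
Log2 fold change against DMSO (x axis) of each tested gene of the 6 other lists (y axis), for XL413, GSK343 and the combination; filled points have an adjusted p under 0.05 and vertical bars are medians. MMP10 and MMP13 are the 2 filled points of the other metalloproteinases, and the 4 filled AP-1 and ETS points lie between -0.26 and -0.15.

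The genes whose profile over the 12 libraries was most like that of each called member were found by the root mean square difference of centred log2 CPM, among 12363 genes of at least 1 log2 CPM. For MMP3 they were PTGES, a prostaglandin E synthase, at 0.140, FGFBP1 at 0.173 and ID2 at 0.177, and the same 3 came first without combination replicate 2. For MMP1 they were AAMDC at 0.138, the tubulin gene TUBA1A at 0.143 and LMO2 at 0.152. For MMP2 they were CRTAP, a collagen prolyl-hydroxylation protein, at 0.0333, NEK2 at 0.0459 and AACS at 0.0459. For PLAU they were COPZ2 at 0.128, AAMDC at 0.133 and TESC at 0.137, and for TIMP1 FAM162A at 0.0273, ZDHHC4 at 0.0299 and PSAP at 0.0304. MMP1 and MMP3 differed from each other by 0.275, more than either did from these genes. The lists of the other 4 members changed without combination replicate 2: AAMDC stayed among the first 3 for MMP1 and CRTAP for MMP2, COPZ2 for PLAU, and FAM162A and ZDHHC4 for TIMP1, while the remaining genes gave way to others. These are descriptions over libraries that share the 4 treatments. The differences are not comparable between members, whose own spread was unlike. The SD of the member's own profile was 0.483 for MMP3, 0.324 for MMP1 and 0.314 for PLAU. It was 0.118 for MMP2 and 0.0851 for TIMP1.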

How the data were processed

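Expected counts per gene were deposited by the authors, estimated with RSEM 1.2.15 after Bowtie2 2.1.0 on hg38, per the submitters' processing notes. The labels' protocols describe poly-A RNA in dUTP strand-specific libraries. Neither annotation, strand setting nor trimming was given in the sources used here.

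Counts, rounded to whole numbers, were fitted by edgeR 4.0.16 (R 4.3.3): filterByExpr on the 4 groups (minimum count 10, total 15), TMM, and 1 quasi-likelihood model over 12 libraries with 8 residual degrees of freedom. Tests were two-sided, adjusted over 15443 genes and called at an adjusted p under 0.05. SE is the log2 fold change over the root of F. CPM uses effective library sizes, and lengths are those of the longest basic GENCODE 29 transcript. P-values measure the spread between replicates, whose independence the labels state only as biological replicates.

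All 9 members are named. From each other list up to 4 called genes with the smallest p are named, or the 2 with the highest level, and for each called member the 3 genes nearest in profile. Members and lists were chosen with earlier results of these data known. Alternatives were RLE and upper quartile scaling, a replicate block, no filter, a minimum of 5 CPM in 3 libraries, limma-voom (limma 3.58.1), DESeq2 1.42.0, a GC and length correction (mgcv 1.9.3), only the groups compared, and each library left out. The scripts were tested on simulated data.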

Additional observations from a re-analysis of the deposited data

How the results depend on the processing

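Of the 9 genes, the numbers called in each comparison were the same, or within 1.5 times, under RLE size factors, upper quartile scaling, DESeq2 and limma-voom. Leaving out each library in turn gave 0 to 2 members with XL413, 1 to 3 with GSK343, 3 to 5 with the combination, and 1 to 2 for the combination against GSK343. The lowest value of the combination, 3, came without DMSO replicate 2. For the combination against GSK343, 1 member was called without a filter and 0 in a fit of only the groups compared, where 0 of all genes were called against 152. There MMP1 kept a value of 0.50 (adjusted p = 0.12). The GC and length correction together with leaving out combination replicate 2, chosen after seeing the data, gave 4 members with XL413 (MMP14 and PLAU beside MMP1 and MMP2) and 5 for GSK343 against XL413. No called value changed direction. Over all genes, XL413 calls were 16 to 756 with a library left out, 249 with DESeq2, 572 with the GC and length correction and 1394 in the fit of only the groups compared, against 66. GSK343 calls were 37 to 958, 342, 881 and 422, against 180. Combination calls were 850 without DMSO replicate 2 and 657 in the fit of only the groups compared, against 2152. DESeq2 called 292 genes for the combination against XL413 and 578 against GSK343, beside 121 and 152 by edgeR, and 2 for the interaction. Without combination replicate 2 the counts with XL413 and GSK343 were 756 and 958. For the combination against XL413, the combination against GSK343 and GSK343 against XL413, with 121, 152 and 545 calls, leaving out a library gave 40 to 252, 35 to 348 and 182 to 1812. The GC and length correction gave 479, 602 and 1406, and the fit of only the groups compared 18, 0 and 1120. The correction without combination replicate 2 gave 1553 with XL413, 2131 with GSK343, 660, 694 and 2716 in the other 3, and 4 for the interaction.

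Replicate numbers gave no sign of pairing the libraries. Correlations of deviations were -0.38 to 0.241 between libraries of the same number and -0.22 to 0.301 between those of different numbers. Of 12 libraries, 2 correlated best with their own number. The labels do not say how the replicate cultures were separated, so these correlations cannot exclude a pairing. With the replicate block 1 member was called for the combination against GSK343, MMP1, since MMP2 had an adjusted p of 0.0695, and 108 genes were called with GSK343 against 180.

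PLAU, MMP10 and MMP13 rest on few counts, 89 to 191, 10 to 30 and 20 to 50 per library, and their intervals are wide.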
